A study of Mus musculus with 17 samples.

Results

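The tumor necrosis factor receptors that carry survival and help signals to B cells are TACI (gene Tnfrsf13b), BAFF-R (Tnfrsf13c), BCMA (Tnfrsf17) and CD40 (Cd40), and TRAF3 (Traf3) is an adaptor bound by several of them. Chromatin accessibility around these 5 genes was measured by ATAC-seq, in which a transposase cuts open chromatin and the reads piled up at a site report how open it is. Accessible regions were taken as members when the deposited annotation gave one of the 5 symbols as the nearest gene or as the nearest transcription start, which selected 38 of 66177 regions (11 for Tnfrsf13b, 8 for Tnfrsf13c, 5 for Tnfrsf17, 4 for Cd40 and 10 for Traf3). In 32 regions both symbols were members, in 5 only the nearest start was, and in 1, downstream of Cd40, only the nearest gene was. Nearness does not show which gene a region acts on.

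BAFF-R binds BAFF and is required for survival of mature naive B cells. TACI binds both BAFF and APRIL, and BCMA, which is known for sustaining long-lived plasma cells in the bone marrow, binds APRIL with the higher affinity. CD40 receives the CD40 ligand of helper T cells and is needed for germinal centers. In resting cells TRAF3 brings the kinase NIK (gene Map3k14) to ubiquitin ligases that mark it for destruction, and engagement of BAFF-R or CD40 removes TRAF3, so that NIK accumulates and the noncanonical NF-kB pathway is switched on.

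The populations compared were nB (naive B cells), GCB (germinal center B cells of lymph nodes that bind the immunogen phycoerythrin) and BMPC (CD138+ plasma cells of bone marrow). All mice, controls included, carried Dnmt3a fl/fl and Dnmt3b fl/fl alleles on a background labelled B6;129S4-Dnmt3atm3.1Enl Dnmt3btm5.1Enl/Mmnc. Dnmt3-deficient mice (KO) also carried 1 Cre allele that is active in the B lineage, so that both de novo DNA methyltransferases are lost from early B cell development onward. Dnmt3-sufficient littermates (C) carried no Cre. The libraries comprised 3 C and 2 KO for nB, 2 C and 4 KO for GCB and 3 C and 2 KO for BMPC. Mice entered at 8 to 12 weeks of age. GCB and BMPC were sorted 30 days after immunization, whereas the paper describes nB as lymph node cells of mice that were not immunized. Cell type thus cannot be told apart from immunization between nB and the other cells, or from tissue between BMPC and the others. Each library was made from 3000 to 5000 cells of 1 mouse, or for GCB of 2 pooled mice. GCB pools are called F1, F2, F3 and M1 as in their labels, and other libraries are numbered within a group. The nB mice were all labelled male and the BMPC mice all female, so that between nB and BMPC cell type and sex cannot be told apart. The paper describes GCB mice of both sexes. C GCB comprised pools F2 and M1, and KO GCB pools F1, F2, F3 and M1. If F and M stand for sex, it was unbalanced between the genotypes of GCB and differed between GCB and the other cells. Its part was not tested. The genotype rests on the labels, because loss of the floxed exons cannot be read from counts per region.

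The unit throughout is RPPM, the reads in a region scaled so that all regions of a library sum to 1e6. Reads in regions numbered 4104875 to 6079018 per library in nB, 907959 to 2280954 in GCB and 5357687 to 8232313 in BMPC, so that the limit set by 3 reads lay between 0.364 and 3.30 RPPM and values in GCB were the least precise. Mitochondrial regions took 7.43 to 10.1% of those reads in GCB and 2.56 to 4.59% in the other cells. The labels were checked on promoters of marker genes. Gcsam, a signaling protein of germinal center B cells, lay at 11.2 to 25.5 RPPM in GCB and at no more than 6.37 RPPM elsewhere. Other promoters of the germinal center list did not share this order. Bcl6, the repressor that directs the germinal center program, was lowest in GCB (14.0 to 21.6 RPPM, against 49.3 to 58.9 in nB and 24.6 to 36.9 in BMPC), and S1pr2 (37.3 to 41.0 RPPM) and Fas (29.4 to 32.6 RPPM) were highest in BMPC. Pax5, the B lineage factor that plasma cells lose, lay at 36.0 to 47.7 RPPM in nB and 2.02 to 3.89 RPPM in BMPC. Summed over 8 of 8 B lineage promoters, levels were 314 to 347 RPPM in nB, 189 to 243 RPPM in GCB and 80.6 to 90.0 RPPM in BMPC. Summed plasma cell promoters (5 of 8 listed names had a region) were highest in BMPC, at 287 to 328 RPPM against 204 to 231 in nB and 156 to 208 in GCB. Prdm1, Xbp1 and Slamf7 shared this order in that BMPC was highest. Irf4 was lower in BMPC (38.9 to 46.9 RPPM) than in nB (55.1 to 61.2 RPPM). Jchain overlapped between GCB (19.8 to 25.3 RPPM) and BMPC (22.5 to 31.0 RPPM). For germinal center genes (7 of 8 listed names) the sums were 179 to 203, 210 to 267 and 182 to 200 RPPM in nB, GCB and BMPC. Among other lineages, 2 of 8 T cell genes (13.4 to 17.4, 16.7 to 35.2 and 18.5 to 22.0 RPPM), 2 of 8 myeloid genes (5.65 to 7.68, 3.75 to 9.91 and 11.8 to 14.2 RPPM) and 3 of 6 erythroid genes (49.8 to 65.5, 41.9 to 57.9 and 68.2 to 78.8 RPPM in nB, GCB and BMPC) had a promoter region, whereas Cd3e, Csf1r and Gata1 had none. Cd247, the zeta chain of the T cell receptor, lay at 5.70 to 25.3 RPPM in GCB and at most at 3.38 RPPM in nB and BMPC, whereas Lck, a kinase of T cells, was lowest in GCB (6.29 to 11.0 RPPM, against 11.2 to 16.1 in nB and 16.8 to 18.6 in BMPC). The part of other cells in the differences below was not tested. In a sorted population, a smaller share of open cells and less opening per cell cannot be told apart.

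Sequences at the centers of 6 member regions are shown because each gene's large called differences between cell types fell in them. Each is 200 bases of mm9, printed 5′ to 3′ on the strand of the gene, and none overlapped an annotated exon. Capitals mark matches to the letters CAGCTG (the E-box of E2A), GGAAGT (PU.1), GAAAC (core of an interferon regulatory factor, IRF, site), GGAANNGAA (PU.1 with IRF), ATGCAAAT (octamer) or GGNNNTTCC (kappa B), searched on both strands.
Tnfrsf17 region 3, upstream of the transcription start, chr16:11313696-11313895, plus strand: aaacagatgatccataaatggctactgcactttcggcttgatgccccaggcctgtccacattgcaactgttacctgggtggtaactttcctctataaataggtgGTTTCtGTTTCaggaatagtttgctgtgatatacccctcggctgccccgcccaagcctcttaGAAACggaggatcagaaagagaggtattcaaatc
Tnfrsf17 region 1, far upstream, chr16:11286067-11286266, plus strand: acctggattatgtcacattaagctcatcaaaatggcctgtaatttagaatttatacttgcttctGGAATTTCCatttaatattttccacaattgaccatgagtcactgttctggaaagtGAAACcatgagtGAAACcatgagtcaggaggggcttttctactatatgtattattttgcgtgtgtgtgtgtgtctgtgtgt
Tnfrsf13b region 7, intron, chr11:60946466-60946665, plus strand: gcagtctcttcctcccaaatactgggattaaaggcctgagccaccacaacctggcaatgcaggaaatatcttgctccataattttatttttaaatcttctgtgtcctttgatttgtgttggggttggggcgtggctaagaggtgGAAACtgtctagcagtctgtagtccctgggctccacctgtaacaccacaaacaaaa
Tnfrsf13c region 8, upstream, chr15:82063170-82063369, minus strand: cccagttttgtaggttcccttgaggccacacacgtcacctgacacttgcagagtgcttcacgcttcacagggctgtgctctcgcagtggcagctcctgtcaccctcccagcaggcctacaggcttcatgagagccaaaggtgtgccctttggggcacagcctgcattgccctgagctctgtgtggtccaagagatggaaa
Cd40 region 2, intron, chr2:164887179-164887378, plus strand: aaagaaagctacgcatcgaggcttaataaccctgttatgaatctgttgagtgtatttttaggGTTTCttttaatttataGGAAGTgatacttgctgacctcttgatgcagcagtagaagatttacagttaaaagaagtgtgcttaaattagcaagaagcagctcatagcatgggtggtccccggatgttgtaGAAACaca
Traf3 region 9, intron, chr12:112420158-112420357, plus strand: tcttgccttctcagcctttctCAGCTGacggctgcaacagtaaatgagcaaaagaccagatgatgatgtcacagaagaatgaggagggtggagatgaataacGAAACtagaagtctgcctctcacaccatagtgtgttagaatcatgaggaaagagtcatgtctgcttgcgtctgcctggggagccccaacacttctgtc

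The window at the Tnfrsf17 start held 3 IRF cores, of which those at bases 105 to 109 and 111 to 115 were on the other strand and that at bases 167 to 171 was on the printed one. In the far upstream Tnfrsf17 window there were 2 IRF cores and, at bases 65 to 73, 1 kappa B stretch that matched the letters on both strands. The Cd40 intron window held 1 PU.1 match and 2 IRF cores, that of Traf3 1 E-box and 1 IRF core, and that of Tnfrsf13b 1 IRF core. No letters of the 6 kinds were in the Tnfrsf13c window. Over all 38 regions, the central 200 bases held an IRF core in 18 (47.4%, against 43.1% of 65893 regions of the same window length), a kappa B match in 9 (23.7% against 12.6%), PU.1 in 8 (21.1% against 23.0%), the PU.1 and IRF composite in 3 (7.89% against 8.37%), the E-box in 2 (5.26% against 14.9%) and the octamer in 1 (2.63% against 2.92%). Composite letters can overlap those of PU.1 and IRF. These shares are descriptions of letters and not of bound factors.

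Regions are numbered along the chromosome within each gene. A region was called different where limma, fitted to log2(RPPM + 1) of all 16 libraries, gave a fold change of at least 2 and a p, adjusted by Benjamini-Hochberg over all 66177 regions, no higher than 0.01. Every log2 fold change below is given ± its SE on that scale, which understates differences of regions with few reads. In C cells 24 of 38 member regions (63.2%) were called in at least 1 of 3 comparisons between cell types, beside 51.8% of all regions, and 11 of 38 (28.9%) were called in none of the comparisons of either genotype, beside 39.8% of all regions.

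**Figure D1:**
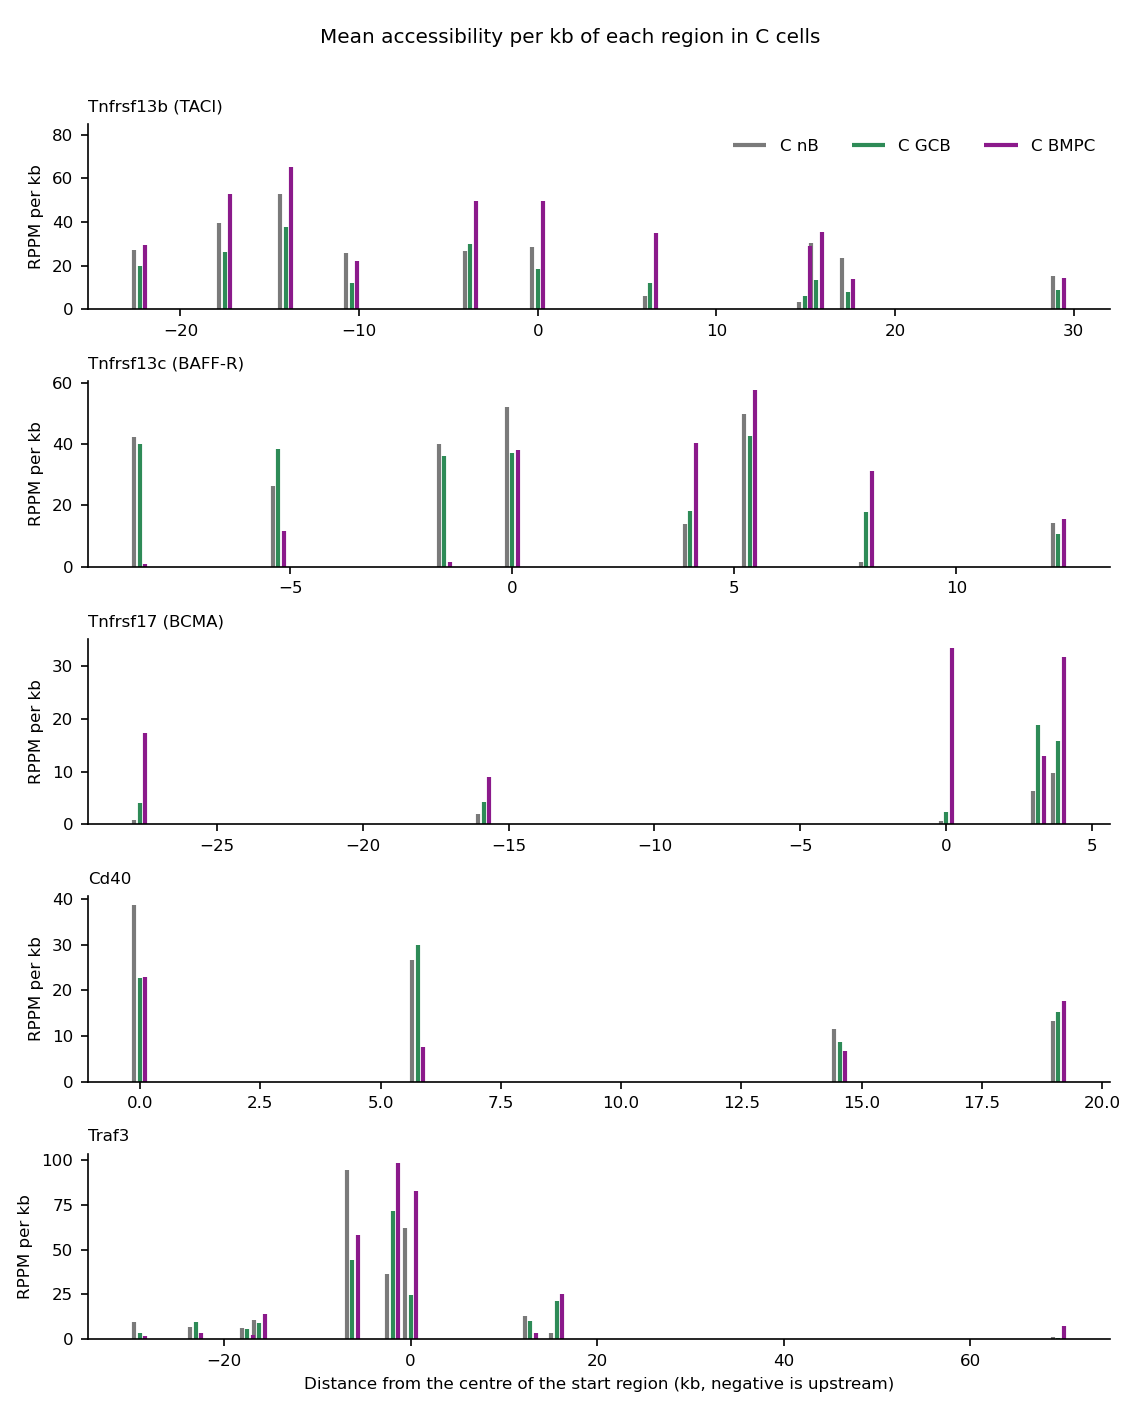
Mean accessibility per kb (y axis, RPPM per kb) of each member region in C nB (grey), C GCB (green) and C BMPC (purple), against its distance from the center of the region over the transcription start (x axis, kb, negative upstream); bars of 1 region stand side by side. The bars of Tnfrsf17 were tallest in BMPC at 4 of 5 regions, whereas 3 upstream regions of Tnfrsf13c were lowest in BMPC.

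Tnfrsf17, the BCMA gene, went from nearly closed in naive B cells to open in plasma cells. Region 3 covers its transcription start (chr16:11313498-11314093, promoter, 5′ UTR and exon). It lay at 0.244, 0.188 and 0.744 RPPM in C nB, at 1.76 (F2) and 0.937 (M1) RPPM in C GCB, and at 19.0, 22.6 and 18.4 RPPM in C BMPC. In KO it lay at 0.165 and 0.197 RPPM in nB, at 2.20 (F1), 6.36 (F2), 2.19 (F3) and 3.50 (M1) RPPM in GCB and at 15.5 and 17.5 RPPM in BMPC. All BMPC libraries were above all GCB libraries, and all GCB libraries were above all nB libraries. The order of GCB over nB rested on few reads. Libraries held 1 to 4 reads in C nB, 2 to 4 in C GCB and 2 to 10 in KO GCB. Between nB and BMPC the log2 fold change was 3.93 ± 0.31 (SE) in C (adjusted p = 2.0e-11, limma) and 3.89 ± 0.38 in KO (adjusted p = 2.4e-09, limma). Only 6 reads fell in this region over the 3 C nB libraries, against 388 over the 3 C BMPC libraries, a ratio of 48.8 in share of reads with a 95% exact interval of 22.2 to 134 that covers counting error only. From nB to GCB the region rose by 1.86 ± 0.33 in KO, with an adjusted p of 3.9e-05 by limma, while the C value of 0.75 ± 0.35 was not called, and the difference between these values of 1.11 ± 0.48 had an adjusted p of 0.78 by limma.

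The other BCMA regions took part unequally. Region 1, 27365 bases upstream of the start, lay at 0.974, 0 and 0.744 RPPM in C nB, 3.52 and 2.34 RPPM in C GCB and 12.1, 11.1 and 15.4 RPPM in C BMPC. It was called higher in each of the 3 C comparisons, by 3.19 ± 0.31 on the log2 scale between nB and BMPC, and its KO libraries lay at 0.493 and 0.984 RPPM in nB, 1.91 to 4.19 RPPM in GCB (median 2.42 RPPM) and 13.1 and 12.9 RPPM in BMPC. The nB to GCB call in C (1.36 ± 0.34) was lost without C nB replicate 2, at an adjusted p of 0.0193 by limma, without C GCB pool F2, at 0.0407, and with quantile normalization, at 0.0263. Region 2, 15601 bases upstream, lay at 1.95, 1.32 and 0.931 RPPM in C nB, at 3.52 and 2.34 RPPM in C GCB, 7.02, 5.29 and 6.54 RPPM in C BMPC, and in KO at 1.15 and 0.590, at 3.07 to 7.71 and at 6.68 and 8.21 RPPM. It was called higher in BMPC than in nB (1.62 ± 0.31 in C and 2.19 ± 0.38 in KO), with GCB and BMPC overlapping in KO. Among intron regions, chosen after their values were seen, region 4 had its highest mean in GCB. Its called difference was from nB to GCB (1.38 ± 0.29 in C and 1.41 ± 0.27 in KO). Region 4 was not called between GCB and BMPC in either genotype. Its KO GCB libraries (7.71 to 21.0 RPPM) overlapped those of KO BMPC (7.09 and 8.02 RPPM). Its mean ± SD was 4.02 ± 0.336 RPPM in the 3 C nB libraries, 12.0 ± 0.428 RPPM in the 2 of C GCB and 8.24 ± 1.73 RPPM in the 3 of C BMPC. Region 5, next to it, followed the start instead, at 6.59 ± 1.06, 10.6 ± 2.42 and 21.3 ± 2.18 RPPM, and was called higher from nB to BMPC in both genotypes. Summed over its 5 regions Tnfrsf17 ran from 11.7 to 15.3 RPPM in nB, 26.2 to 38.8 RPPM in GCB and 65.9 to 73.0 RPPM in BMPC. The start region held 1.27 to 6.25% of that sum in nB and 23.5 to 31% in BMPC.

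Tnfrsf13b, the TACI gene, was accessible in all 3 cell types and highest in BMPC. Its start region 6 (chr11:60939914-60940629) lay at 18.5, 19.4 and 23.1 RPPM in C nB, 11.9 and 14.5 RPPM in C GCB and 36.9, 36.3 and 33.3 RPPM in C BMPC. KO libraries lay at 17.8 and 17.9 RPPM in nB, 11.8 to 15.4 RPPM in GCB and 31.6 and 27.6 RPPM in BMPC, so that the 3 cell types did not overlap in either genotype. The called difference was from GCB to BMPC, 1.37 ± 0.17 in C and 1.10 ± 0.17 in KO. The difference between BMPC and nB of 0.78 ± 0.16 in C had an adjusted p of 0.00011 by limma but did not reach 2-fold.

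Larger differences were inside the gene. Intron region 7 (chr11:60946233-60946897) lay at 4.38, 3.01 and 4.28 RPPM in C nB, 7.92 and 7.96 RPPM in C GCB and 20.9, 23.9 and 24.4 RPPM in C BMPC. It rose from nB to BMPC by 2.31 ± 0.21 in C and by 2.55 ± 0.26 in KO, where nB lay at 2.14 and 1.77 RPPM, GCB at 7.69 to 11.0 RPPM and BMPC at 14.0 and 19.0 RPPM. The cell types did not overlap there. Intron region 8 (chr11:60955099-60955363) is 776 bases downstream of another annotated start of the gene than that under region 6. It lay at 0.974, 0.942 and 0.744 RPPM in C nB, 1.76 and 1.41 RPPM in C GCB and 7.80, 8.21 and 6.85 RPPM in C BMPC. In KO it lay at 0.658 and 0.787 RPPM in nB, 1.27 to 4.89 RPPM in GCB and 5.95 and 8.40 RPPM in BMPC, again without overlap. Region 8 held only 4 to 5 reads per library in C nB, 3 to 4 in C GCB and 2 to 8 in KO GCB. Its rise from nB to BMPC was 2.19 ± 0.32 in C and 2.23 ± 0.39 in KO. The adjacent intron region 9 did not share this order. Chosen after its values were seen, it was lowest in GCB, at 14.5 and 10.3 RPPM in C against 27.5 to 30.7 RPPM in C nB and 32.4 to 34.3 RPPM in C BMPC, and from nB to GCB it fell by 1.16 ± 0.17 on the log2 scale. Regions 4 (-1.03 ± 0.24) and 10 (-1.45 ± 0.28) also fell from nB to GCB in C. All 3 of these calls were lost when C GCB pool M1 was left out (-0.936, -0.792 and -1.17 for regions 9, 4 and 10). For region 10 the adjusted p was then 0.0104 by limma. The call of region 4 was also lost without C nB replicate 1 (-0.981). In KO region 9 was called from nB to GCB (-1.09 ± 0.16), and regions 4 and 10 were not. Region 9 was also called higher in BMPC than in GCB, by 1.37 ± 0.17 in C and 1.28 ± 0.16 in KO.

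**Figure D2:**
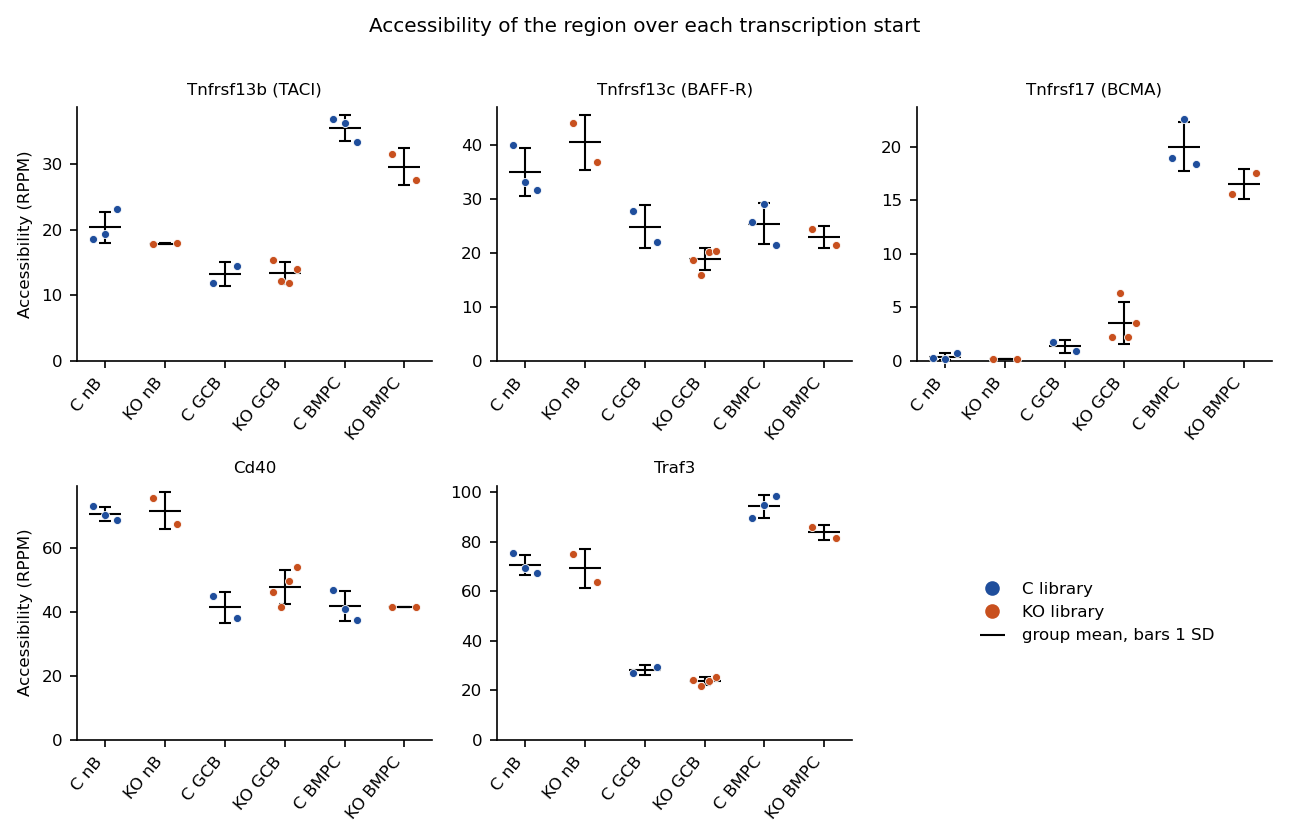
Accessibility (y axis, RPPM) of the region over the transcription start of each of the 5 genes in C (blue) and KO (orange) libraries of nB, GCB and BMPC (x axis); points are libraries, dashes group means and bars 1 SD (n = 2 to 4). Tnfrsf17 was near 0 in nB and at 15.5 to 22.6 RPPM in BMPC, and Traf3 was lowest in GCB.

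At Tnfrsf13c, the BAFF-R gene, 5 of the 7 regions away from the start were called from nB to BMPC in C and the start was not, while regions 1 and 3 were called in no comparison. Start region 5 (chr15:82054557-82055224, on the minus strand) lay at 40.0, 33.2 and 31.6 RPPM in C nB, 27.7 and 22.0 RPPM in C GCB and 25.6, 29.0 and 21.5 RPPM in C BMPC. In KO it lay at 44.1 and 36.8 RPPM in nB, 15.9 to 20.3 RPPM in GCB and 24.4 and 21.5 RPPM in BMPC. All nB libraries were above all GCB and BMPC libraries. No C comparison was called (-0.48 ± 0.17 for GCB and -0.45 ± 0.15 for BMPC, each against nB), while in KO the region fell by 1.07 ± 0.16 on the log2 scale from nB to GCB. That KO call was lost without KO nB replicate 1 (-0.941) without KO GCB pool F2 (-0.995) and with quantile normalization (-0.920), and the difference between genotypes in this step, -0.59 ± 0.24, had an adjusted p of 0.76 by limma.

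Upstream of BAFF-R, 3 regions were less accessible in plasma cells than in naive B cells. Region 8 (chr15:82063037-82063502), 8267 bases upstream of the start and nearer the body of Cenpm, lay at 16.3, 21.1 and 21.6 RPPM in C nB, 21.6 and 15.9 RPPM in C GCB, and 0.650, 0.365 and 0.311 RPPM in C BMPC. Its KO libraries lay at 17.8 and 19.5 RPPM in nB, 18.7 to 26.7 RPPM in GCB, and 2.19 and 2.24 RPPM in BMPC. From nB to BMPC it fell by 3.84 ± 0.21 on the log2 scale in C (adjusted p = 1.8e-14, limma). In KO it fell by 2.61 ± 0.26, and in both genotypes nB and GCB overlapped. Over the C libraries 295 reads in nB stood against 9 in BMPC, a ratio of 43.4 in share of reads (95% exact interval 22.6 to 95.9). Region 6 (chr15:82056327-82056514), 1557 bases upstream and annotated as promoter, lay at 6.33, 7.16 and 9.12 RPPM in C nB, 7.92 and 5.62 RPPM in C GCB and 0.780, 0 and 0.156 RPPM in C BMPC. In KO it lay at 5.59 and 6.89 RPPM in nB, 4.82 to 10.2 RPPM in GCB and 1.09 and 1.12 RPPM in BMPC. All BMPC libraries were below all others, with log2 fold changes between nB and BMPC of -2.73 ± 0.29 in C and -1.78 ± 0.36 in KO. Region 7, between them, lay at 10.7 to 15.1 RPPM in nB and 3.89 to 7.09 RPPM in BMPC (-1.07 ± 0.24 in C and -1.17 ± 0.30 in KO, both called). Its call in C was lost with quantile normalization (-0.934), without C BMPC replicate 3 (-0.980) and without C nB replicate 2 (-0.934), and its call in KO without KO BMPC replicate 1 (-0.804) and without KO nB replicate 2 (adjusted p = 0.0231, limma). Downstream of the gene the direction was opposite. Regions 2 (2.45 ± 0.32) and 4 (1.37 ± 0.28), chosen after their values were seen, rose from nB to BMPC in C and also in KO (2.76 ± 0.39 and 1.98 ± 0.34). Region 2 held only 0 to 2 reads per library in C nB, under the limit of 3 reads, against 33 to 51 in C BMPC. The C call of region 4 was lost with a pseudocount of 5 RPPM (0.866). Summed over its 8 regions, the levels of GCB and BMPC overlapped, at 141 to 153 RPPM in nB, 102 to 135 RPPM in GCB and 118 to 140 RPPM in BMPC.

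**Figure D3:**
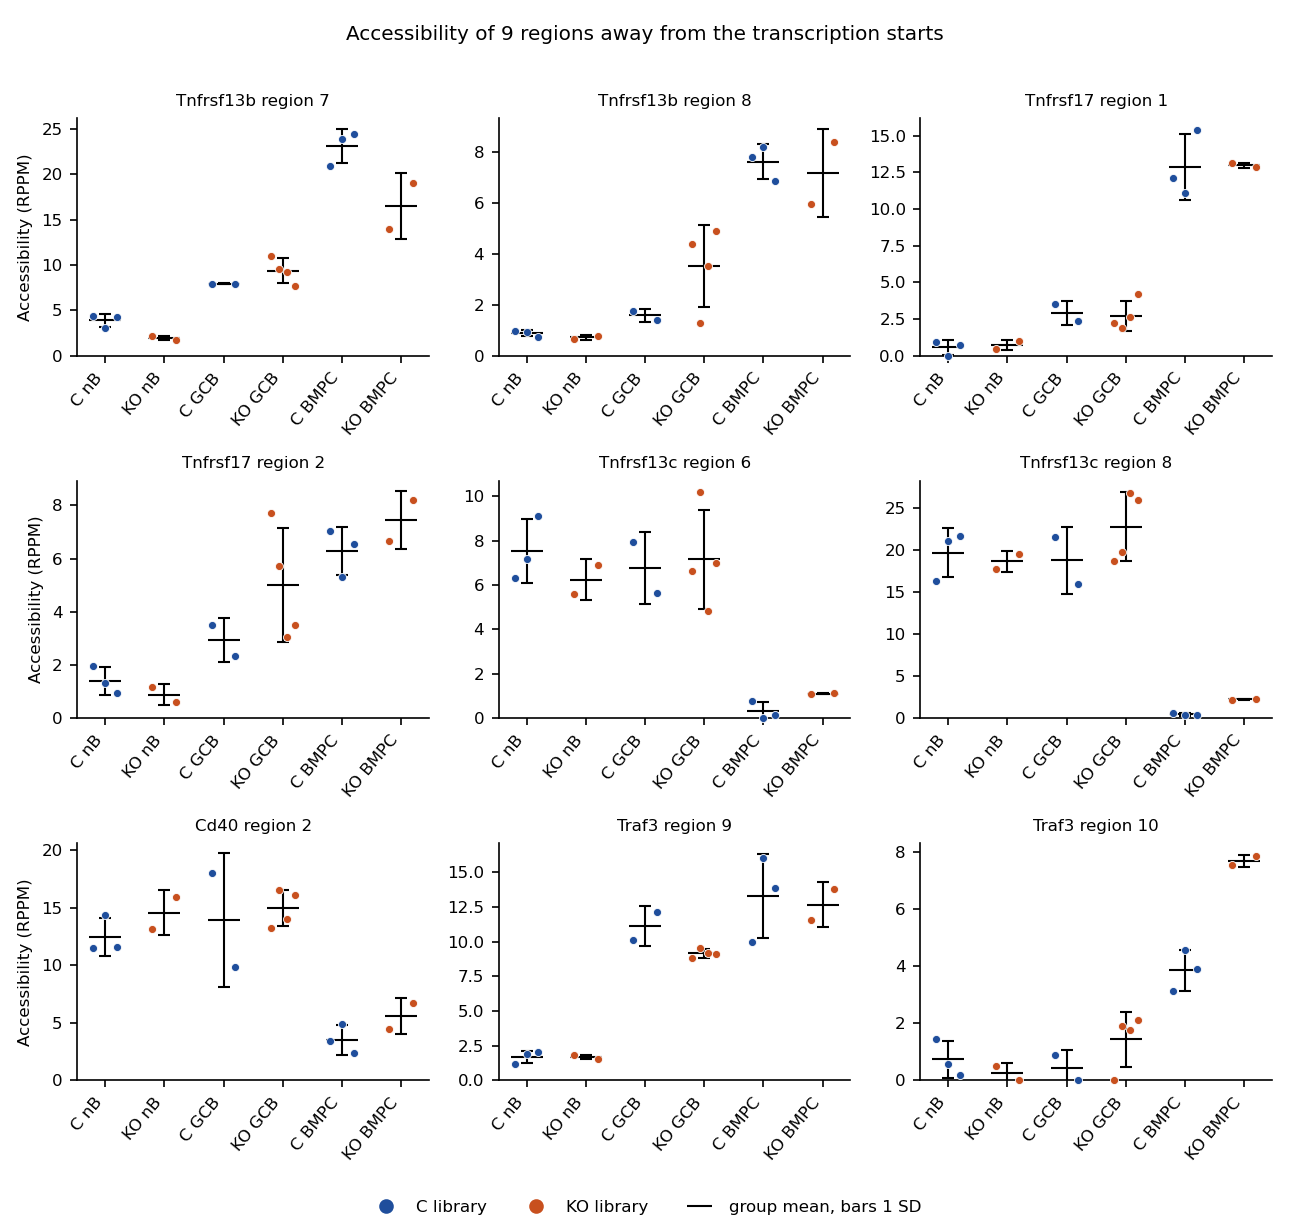
Accessibility (y axis, RPPM) of 9 regions other than start regions in C (blue) and KO (orange) libraries of nB, GCB and BMPC (x axis). Points are libraries, dashes group means and bars 1 SD (n = 2 to 4). Tnfrsf13b region 8 is 776 bases from another annotated start of its gene. Tnfrsf13c region 8 was at 15.9 to 26.7 RPPM in every nB and GCB library and at most at 2.24 RPPM in BMPC, while Tnfrsf17 region 1 and Tnfrsf13b regions 7 and 8 were highest in BMPC.

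Cd40 was most accessible in naive B cells, where its 4 regions summed to 91.2 to 99.7 RPPM, against 55.3 to 76.0 RPPM in GCB and 48.9 to 60.7 RPPM in BMPC. Start region 1 (chr2:164880596-164882422), the widest member at 1827 bases, lay at 73.1, 70.1 and 68.7 RPPM in C nB, 44.9 and 37.9 RPPM in C GCB and 46.8, 40.9 and 37.5 RPPM in C BMPC. In KO it lay at 75.7 and 67.5 RPPM in nB, 41.4 to 53.8 RPPM in GCB and 41.5 and 41.4 RPPM in BMPC. Every nB library was above every GCB and BMPC library, and GCB and BMPC overlapped. The differences from nB of -0.76 ± 0.13 (GCB) and -0.75 ± 0.12 (BMPC) in C had adjusted p of 2.9e-05 and 3.1e-06 by limma and did not reach 2-fold. Intron region 2 (chr2:164887046-164887511) was called. It lay at 11.4, 14.3 and 11.5 RPPM in C nB, 18.0 and 9.84 RPPM in C GCB and 3.38, 4.93 and 2.34 RPPM in C BMPC, with KO libraries at 13.2 and 15.9, at 13.2 to 16.5 and at 4.49 and 6.72 RPPM. All BMPC libraries were below all others, at -1.60 ± 0.24 in C and -1.25 ± 0.29 in KO relative to nB. The KO call was lost without KO BMPC replicate 1 (adjusted p = 0.0250, limma) and without KO nB replicate 2 (adjusted p = 0.0169, limma). Regions 3 and 4 were called in no comparison, at 1.09 to 4.46 and 3.50 to 12.1 RPPM over all libraries.

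Traf3 was least accessible in GCB at its start. Region 7 (chr12:112404037-112405170) lay at 75.3, 69.3 and 67.4 RPPM in C nB, 26.8 and 29.5 RPPM in C GCB, and 89.3, 94.9 and 98.4 RPPM in C BMPC. KO libraries lay at 74.8 and 63.6 RPPM in nB, 21.6 to 25.2 RPPM in GCB, and 85.9 and 81.6 RPPM in BMPC, so that the cell types did not overlap. From nB to GCB it fell by 1.30 ± 0.12 in C (-1.51 ± 0.11 in KO), and it rose from GCB to BMPC by 1.71 ± 0.12 and 1.78 ± 0.11. Over all 11533 promoter regions the median in C had the same signs and was smaller, at -0.19 from nB to GCB and 0.31 from GCB to BMPC. Of these promoters 6.58% were called lower and 8.53% higher in the first step, and 10.8% higher and 5.78% lower in the second. The shallower depth and higher mitochondrial share of the GCB libraries moved with this difference, and their part in it was not tested. The neighboring region 6 (chr12:112402369-112403045), 1713 bases upstream of the start, behaved otherwise. Chosen after its values were seen, it lay at 24.4 to 25.1 RPPM in C nB, 44.9 and 52.5 RPPM in C GCB and 64.0 to 69.0 RPPM in C BMPC, and it rose from nB to BMPC by 1.40 ± 0.13 in C and 1.57 ± 0.15 in KO. Region 5, 5988 bases upstream and also chosen after its values were seen, was highest in nB and differed in GCB by -1.09 ± 0.14 in C and -1.05 ± 0.13 in KO, both called. Both calls were lost with quantile normalization (-0.894 and -0.784), that in C also without C GCB pool F2 (-0.846) and that in KO without KO nB replicate 1 (-0.966).

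Inside Traf3, region 9 (chr12:112419996-112420519) opened already in GCB. It lay at 1.22, 1.88 and 2.05 RPPM in C nB, 10.1 and 12.2 RPPM in C GCB, and 10.0, 16.1 and 13.9 RPPM in C BMPC, and in KO at 1.81 and 1.57, at 8.81 to 9.55 and at 11.5 and 13.8 RPPM. No nB library reached the lowest GCB library. The rise from nB to GCB was 2.17 ± 0.26 in C and 1.92 ± 0.25 in KO, and GCB and BMPC differed by 0.22 ± 0.26 in C, which was not called. Region 10 (chr12:112473766-112474304), deep in the gene, lay at 1.46, 0.565 and 0.186 RPPM in C nB, 0.880 and 0 RPPM in C GCB and 3.12, 4.56 and 3.89 RPPM in C BMPC, and in KO at 0.493 and 0, at 0 to 2.10 and at 7.53 and 7.84 RPPM. It was called higher in BMPC than in nB (1.54 ± 0.39 in C and 2.83 ± 0.48 in KO) and than in GCB. In C the call against nB was lost without C nB replicate 3 (adjusted p = 0.0158, limma) and that against GCB without C GCB pool M1 (adjusted p = 0.0451, limma) and with DESeq2 (adjusted p = 0.0124). With a pseudocount of 0.1 RPPM both were lost, at adjusted p of 0.0475 and 0.0151 by limma, as was the KO call against GCB (adjusted p = 0.0301, limma). Intron region 8 was called lower in BMPC than in nB (-1.40 ± 0.28 in C and -1.77 ± 0.34 in KO).

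**Figure D4:**
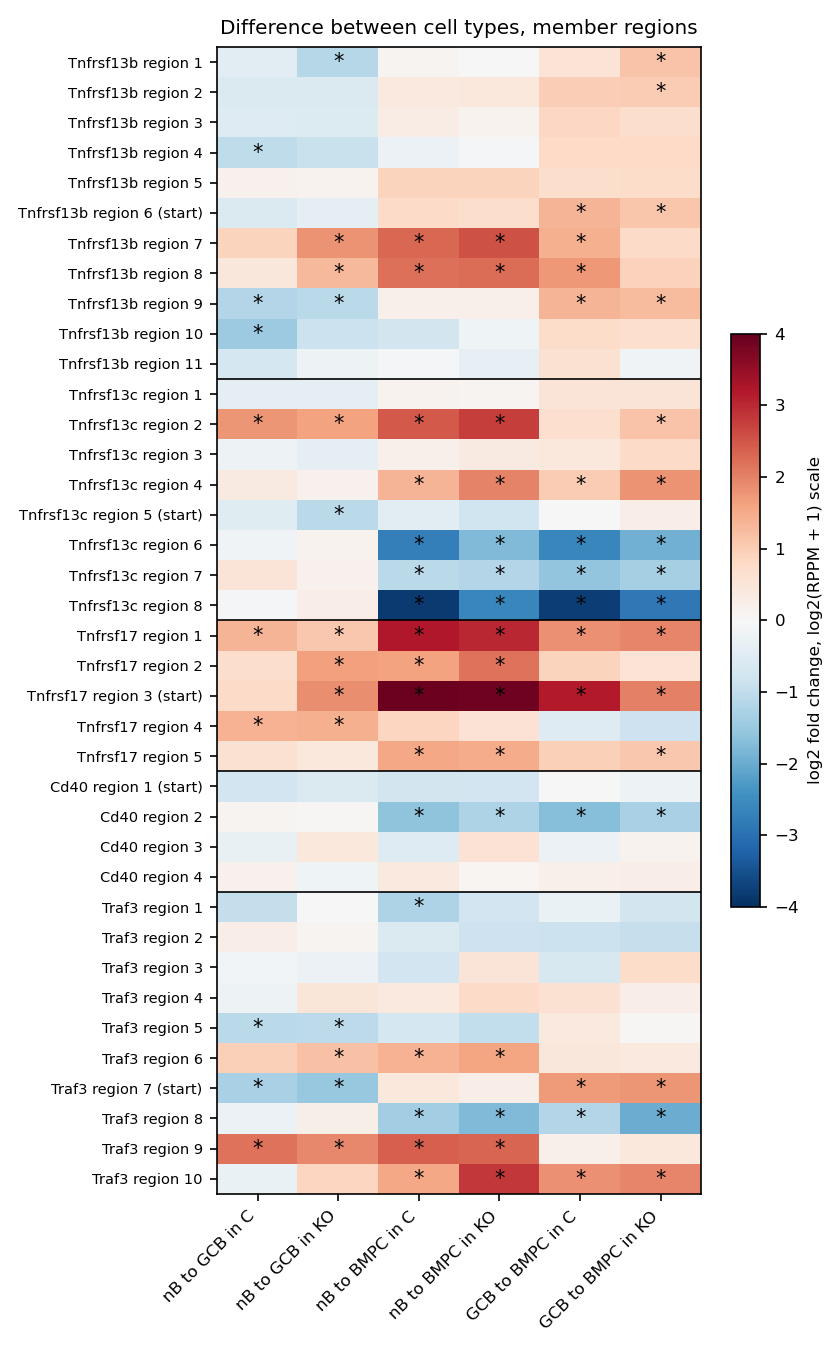
Log2 fold changes on the log2(RPPM + 1) scale (color) of the 38 member regions (rows, by gene and position) in 6 comparisons between cell types (columns, C beside KO); asterisks mark called regions. From nB to BMPC 17 regions were called in C and 16 in KO, and these 16 were called in both with the same sign.

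Over all members, nB to BMPC in C gave 11 regions higher and 6 lower, or 28.9% and 15.8% of 38, beside a background over all regions of 18.0% and 20.1%. From GCB to BMPC in C 9 were higher and 5 lower (23.7% and 13.2%, background 11.3% and 19.1%), and from nB to GCB in C 4 were higher and 5 lower (10.5% and 13.2%, background 14.2% and 8.47%). In KO the same comparisons gave 11 and 5 from nB to BMPC (background 18.4% and 16.9%), 11 and 5 from GCB to BMPC (background 12.1% and 19.9%) and 9 and 5 from nB to GCB (background 18.4% and 7.84%). The members' median between nB and BMPC in C was 0.26 on the log2 scale, against 0.03 over all regions. By gene, nB to BMPC in C gave 4 of 5 Tnfrsf17 regions higher and none lower, 2 of 11 higher for Tnfrsf13b, 2 of 8 higher and 3 lower for Tnfrsf13c, 1 of 4 lower for Cd40, and 3 of 10 higher and 2 lower for Traf3. C and KO shared 7 called regions with the same sign from nB to GCB (18.4% of 38, beside 17.5% of all regions), 16 from nB to BMPC (42.1% beside 30.5%) and 12 from GCB to BMPC (31.6% beside 23.6%). On the recovered reads, edgeR's quasi-likelihood test called 9, 18 and 16 member regions from nB to GCB, nB to BMPC and GCB to BMPC in C, beside 24.9%, 44.9% and 33.3% of all regions. The nB to GCB counts were the least stable. In C the 9 calls fell to 5 without C GCB pool M1, and in KO the 14 calls fell to 9 without KO nB replicate 1.

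Between genotypes no member region was called in any cell type. In nB the background was 0% of all regions, in GCB 0.0317% and in BMPC 0.104%. At an unadjusted p under 0.05 there were 1, 7 and 5 member regions in nB, GCB and BMPC by limma, beside 1.67%, 11.8% and 9.55% of all regions. By edgeR's likelihood ratio test on the reads 0, 0 and 2 were called (background 0.0151%, 0.0181% and 2.53%), by its quasi-likelihood test 0, 0 and 1 (background 0.0106%, 0.00151% and 1.81%), and by DESeq2 none (background 0.00151%, 0% and 0.746%). Tests of whether the genotype difference itself differed between cell types also gave no call among the members, beside 0% of all regions in each of the 3 tests, with 3, 4 and 4 member regions at an unadjusted p under 0.05 (GCB against nB, BMPC against nB and BMPC against GCB), beside 6.21%, 5.24% and 8.32% of all regions.

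The region with the smallest p in BMPC was Tnfrsf13c region 8, one of those that were less accessible in plasma cells. Residual accessibility was higher in KO BMPC (2.19 and 2.24 RPPM, 18 and 12 reads) than in C BMPC (0.650, 0.365 and 0.311 RPPM, 2 to 5 reads). The groups did not overlap, the log2 fold change was 1.16 ± 0.24, and its adjusted p of 0.0176 by limma missed the limit. The ratio of summed reads was 4.81 with a 95% exact interval of 2.22 to 11.5. It was called by edgeR's quasi-likelihood test (log2 fold change 2.13, adjusted p = 0.0030) and by limma without KO GCB pool F1 (adjusted p = 0.0077). The difference between this value and that of KO against C in nB was 1.23 ± 0.34, with an adjusted p of 0.42 by limma. Both KO BMPC libraries were far under the 15.9 to 26.7 RPPM of nB and GCB. Summed B lineage promoters in BMPC were 81.7 to 90.0 RPPM in C and 80.6 to 86.6 RPPM in KO. The part of other cells in the difference at Tnfrsf13c region 8 was not tested. The second region called by the likelihood ratio test was Traf3 region 3, named after its values were seen, at 1.17, 0.730 and 0.467 RPPM in C BMPC and 2.19 and 4.29 RPPM in KO BMPC.

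In GCB the smallest p was at the Tnfrsf17 start, 0.89 ± 0.33 higher in KO with an adjusted p of 0.27 by limma. The 4 KO pools (2.19 to 6.36 RPPM) lay above the 2 C pools (0.937 and 1.76 RPPM), on 22 and 6 reads in all. In nB it was at Tnfrsf13b intron region 7, -0.72 ± 0.24 in KO with an adjusted p of 1.0 by limma, where the 2 KO libraries (2.14 and 1.77 RPPM) lay below the 3 of C (3.01 to 4.38 RPPM). At the 5 start regions the KO against C values ran from -0.26 to 0.21 in nB and BMPC and from -0.38 to 0.89 in GCB.

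**Figure D5:**
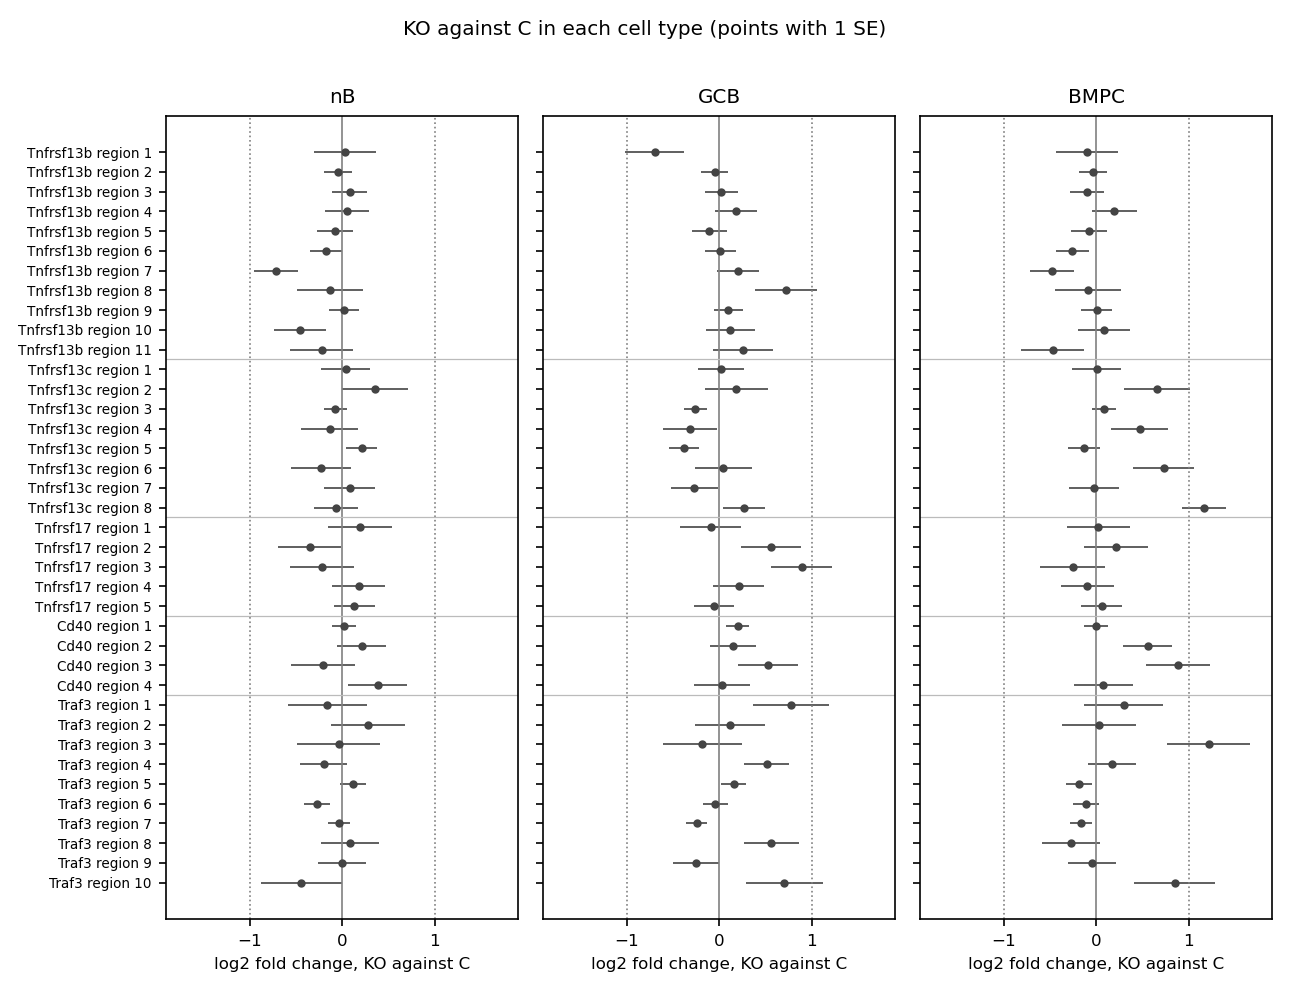
Log2 fold change of KO against C on the log2(RPPM + 1) scale (x axis, points with 1 SE) for the 38 member regions (y axis) in nB, GCB and BMPC; dotted lines mark 2-fold. No region was called, and the points past a dotted line were Tnfrsf13c region 8 and Traf3 region 3 in BMPC.

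Set against the 11533 promoter regions per kb, the 5 starts held different ranks. In C BMPC Traf3 (83.1 RPPM per kb) was above 98.0% of promoters, Tnfrsf13b (49.6) above 69.2%, Tnfrsf13c (38.0) above 49.4%, Tnfrsf17 (33.5) above 42.3% and Cd40 (22.8) above 27.5%. In C nB the order was Traf3 (62.3 RPPM per kb, above 86.2%), Tnfrsf13c (52.3, above 75.5%), Cd40 (38.6, above 55.3%), Tnfrsf13b (28.4, above 39.1%) and Tnfrsf17 (0.658, above 1.01%). In C GCB Tnfrsf13c was first, at 37.2 RPPM per kb and above 66.7%. The Traf3 start was also the member richest in CpG, with 13.7 CpG per 100 bases, more than 99.7% of regions. The starts of Tnfrsf13c (4.04), Tnfrsf13b (2.51), Cd40 (2.24) and Tnfrsf17 (1.68) held fewer, and the median was 1.36 over members and 1.46 over all regions.

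The promoters most alike to each start were found by Pearson's r of log2(RPPM + 1) over the 16 libraries among 10922 genes, as a description in which libraries of 1 cell type share much of their pattern. Tnfrsf17 was followed most closely by Wnt9a (r = 0.978), Zmynd8 (0.974) and Mir761 (0.974). For Tnfrsf13b they were Pold3 (0.983), Pafah1b3 (0.973) and Zfp768 (0.969), and for Tnfrsf13c Syk (0.947), Lrp10 (0.920) and Bcl9l (0.913). For Cd40 they were Trio (0.978), Tspan32 (0.970) and Txk (0.964). Traf3 had the most such genes, with 1723 at an r over 0.9 led by Map3k1 (0.990), Kdm2a (0.989) and Fam120a (0.989), whereas 7 genes reached that for Tnfrsf13c. Among the members, the starts of Tnfrsf13b and Traf3 were most alike (r = 0.881), and those of Tnfrsf17 and Cd40 the most opposed (r = -0.761).

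Of 36 other genes of these pathways, 35 had a region and together they had 306. From nB to BMPC in C 49 of these were called higher and 79 lower (16.0% and 25.8%, background 18.0% and 20.1%). From nB to GCB there were 40 and 45 (13.1% and 14.7%, background 14.2% and 8.47%), from GCB to BMPC 38 and 62 (12.4% and 20.3%, background 11.3% and 19.1%), and none was called between KO and C in any cell type. Among ligands, the promoter of Tnfsf13b, which encodes BAFF, lay at a mean ± SD of 0.517 ± 0.364 RPPM in C nB, 14.2 ± 2.25 RPPM in C GCB and 11.0 ± 1.67 RPPM in C BMPC, and rose from nB to GCB by 3.35 ± 0.28. The region nearest to Cd40lg, the CD40 ligand gene, was called lower in BMPC than in nB in C, and Tnfsf13 (APRIL) had no region. Among adaptors and ligases 13 of 81 regions were higher and 17 lower from nB to BMPC in C. Of 44 regions of kinase genes 2 were higher and 13 lower. These included a region of Ikbkb, a kinase of the canonical pathway (-4.33 ± 0.26), and, in the other direction, a region nearest to Map3k7, the kinase TAK1 (4.08 ± 0.28), that lies 111568 bases from its start. Of 116 regions of NF-kB subunits and inhibitors 21 were higher and 29 lower, including regions of the inhibitor Nfkbia (3.74 ± 0.27) and the subunit Nfkb1 (-3.66 ± 0.26). Of 63 regions of survival genes of the BCL2 family 12 were higher and 19 lower, including regions of Bcl2l1 (3.41 ± 0.23) and Bcl2a1b (-3.44 ± 0.21), the latter in a family of near-identical copies among which reads can be misplaced.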

How the data were processed

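The authors trimmed paired-end reads, mapped them to mm9 with Bowtie (1.1.1 in the submitters' processing notes), called peaks in each sample with MACS2 (2.1.0.20140616, q of 0.01) and took the union of the peaks. Picard 1.127 is also named in those notes, with no role given. The deposited values are reads per region on the RPM scale, taken relative to the total of reads within regions and called RPPM, with replicates kept apart. The deposited columns of the authors' edgeR 3.12.1 comparisons were not used. The deposited values hold no column for 1 labelled KO BMPC sample, which could therefore not be analysed. The paper states that 1 sample was left out for its share of reads in peaks, without naming it. Regions without reads in a library are listed at 0.

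Groups came from the labels. The members, the gene lists and the tests were chosen with earlier results of these data known. log2(RPPM + 1) of all 66177 regions was fitted with limma 3.58.1 in R 4.3.3 with 6 group means and a mean-variance trend, without a filter on low values. Whole reads were recovered in 100% of values (tolerance 0.01 reads) and tested with edgeR 4.0.16 and DESeq2 1.42.0 as alternatives. Values were given in full for the start region of each gene, for the 2 other regions of each with the largest called differences in C, and for the smallest p between genotypes. The 3 most alike promoters had a mean of at least 5 RPPM in some group and lay within 1000 bases of a start. Pathway genes were named by the 3 largest called rises and falls from nB to BMPC in C, with 1 region a gene. Fits and searches were tested on simulated data. Sequences and exons came from the NCBIM37 genome and the GENCODE annotation of that build. Duplicated PCR reads were not marked by molecular identifiers, so intervals and the limit of 3 reads cover counting error only.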

Additional observations from a re-analysis of the deposited data

Results flagged for a closer look

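The intron region 10 of Traf3 had 0 RPPM in pool F1 of KO GCB, whereas pools F2, F3 and M1 lay at 1.91, 1.75 and 2.10 RPPM. The gap from F1 to the nearest pool was 0.836 of the range of the group, above the 95% critical value of Dixon's test for 4 samples of 0.829. Of the groups of 4 libraries, 14 were examined, 1 for each region given in full, and chance gives about 1 such value in 20. F1 was the shallowest library, where 1 read is worth 1.10 RPPM and 3 reads 3.30 RPPM, so that the other pools lay below its limit. The part of depth in this value was not tested.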

How the results depend on the processing

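Counts of called member regions moved by over 1.5 times as follows. With a pseudocount of 5 RPPM the counts in C went from 9 to 3 (nB to GCB) and from 17 to 11 (nB to BMPC), and in KO from 14 to 4 (nB to GCB) and from 16 to 7 (GCB to BMPC), a setting that by construction shrinks fold changes of regions with few reads. Leaving out 1 library gave 5 to 9 regions from nB to GCB in C and 9 to 16 in KO. The KO against C count in BMPC of 0 became 1 with a pseudocount of 0.1 RPPM, an adjusted p of up to 0.05 or edgeR's quasi-likelihood test, 2 with its likelihood ratio test, and 0 to 1 with 1 library left out. Over all regions the share in BMPC was 0.104% in the main fit, 1.81% by the quasi-likelihood test and 2.53% by the likelihood ratio test. Shares of all regions under the other settings are not given here, so those member counts have no background beside them. GCB pools F2 and M1 occur in both genotypes, but their deviations from the group means correlated at only 0.063 (Pearson's r across regions), so the names were not taken as pairs. The replicate block setting also left out KO GCB pools F1 and F3, and it placed no block among BMPC libraries. With it the KO against C count in GCB was 0, and the count in BMPC became 1. Leaving out KO GCB pool F1 alone gave the same BMPC call, Tnfrsf13c region 8.

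Several small differences, none of them called, turned direction, and the cause was not tested. The KO against C value of the Tnfrsf13b start in GCB was -0.042 with TMM scaling, -0.018 with quantile normalization, -0.073 with each of edgeR's tests, -0.086 with DESeq2, -0.013 with the replicate block and -0.12 to 0.15 with 1 library left out. Quantile normalization also gave -0.17 for the Tnfrsf13c start and -0.28 for the Cd40 start (GCB to BMPC in C), 0.027 for the Cd40 start (KO against C in BMPC), and -0.024 for Tnfrsf13b region 8 and 0.030 for Tnfrsf13c region 8 (nB to GCB in C). With 1 library left out, the Tnfrsf13c and Cd40 starts ran from -0.13 to 0.19 and from -0.11 to 0.13 (GCB to BMPC in C). The Cd40 start ran from -0.064 to 0.099 in nB and from -0.075 to 0.081 in BMPC, and the Traf3 start from -0.15 to 0.084 in nB (KO against C). From nB to GCB in C the ranges were -0.35 to 0.076 for Tnfrsf13c region 6, -0.28 to 0.14 for its region 8, -0.30 to 0.51 for Cd40 region 2 and -0.73 to 0.18 for Traf3 region 10.

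Of the log2 fold changes of regions given in full, 1160 of 1184 with 1 library left out and 788 of 819 under other settings kept their direction and their side of the limits. The median over all regions from nB to GCB in KO was 0.12, 0.041 with TMM and -0.067 with quantile normalization. Depth limits GCB most, where 3 reads reach 3.30 RPPM.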
